A study of Mus musculus with 9 samples.

Results

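Messenger RNA for the enzymes that make and break down prostaglandins, and for their receptors, was examined in the colon of C57BL/6J wild-type mice. The set holds 10 genes, taken by symbol from a table of 35315 genes: the cyclooxygenases Ptgs1 and Ptgs2, the terminal synthases Ptges, Ptgds and Ptgis, the breakdown enzyme Hpgd and the receptors Ptger2, Ptger3, Ptger4 and Ptgir. The Control group had plain drinking water. In the DSS group the water held 2.5% dextran sulfate sodium, which damages the gut lining and brings on colitis, for 7 days, and solvent was injected intravenously on days 2, 4 and 6. The GsMTx4 group had the same water and was injected on those days with GsMTx4, a spider-venom peptide that blocks mechanically gated cation channels, at 10 mg/kg. All mice were 8 weeks old, and each group had 3 libraries of whole colon RNA. The labels list no injection in Control, so the effects of DSS and of solvent injection cannot be told apart there.

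Prostaglandins are short-lived lipids made from arachidonic acid. Phospholipases release the acid from membranes, a cyclooxygenase converts it to the intermediate PGH2, and terminal synthases turn PGH2 into PGE2, PGD2, prostacyclin and other products. PGE2 is taken up into cells and inactivated by 15-hydroxyprostaglandin dehydrogenase, which Hpgd encodes. In the colon, PGE2 acting on its receptors EP2 and EP4 is known to support epithelial survival and repair, and both inflammation and its resolution involve these lipids.

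Levels are given in FPKM (fragments scaled by transcript length and by library depth), as mean ± SD over 3 libraries. Fold changes are log2 differences of FPKM + 1 with their SE, which understates changes of low genes, and adjusted p-values are from limma over 14360 genes that reached 1 FPKM in at least 3 libraries. FPKM sums ran from 349125 to 440935 per library, with the highest in GsMTx4 3. The lowest values fell in steps, and if 1 step is 1 fragment, the libraries held 19600000 to 21000000 fragments in Control, 17200000 to 21500000 in DSS and 15100000 to 17200000 in GsMTx4. Whether the libraries within a group are from different mice is not stated, so a p-value here reflects only sample-to-sample spread, which may be technical. Of all 9 libraries, DSS 3 carried the highest summed marker levels for neutrophils, fibroblasts, endothelium, adipocytes and enteric neurons and glia. The same held for smooth muscle, tuft cell and goblet cell markers. Fits without DSS 3 are given for Ptges, Hpgd and Ptgs2, but not for Ptgis, Ptger2 or Ptgir.

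In DSS colon, the PGE2 synthase gene Ptges rose and the breakdown gene Hpgd fell. Of the 10 genes, 6 passed the filter on low values. In DSS against Control 1 of these was called higher and 1 lower, where 17.1% of all tested genes were called, 6.41% higher and 10.7% lower. The same 1 and 1 were higher and lower without overlap between the groups, as 47.1% of all tested genes were, 13.5% higher and 33.6% lower. With GsMTx4 against DSS, Ptges was called lower and no other gene of the set was called, where 12.3% of all tested genes were called, 6.66% higher and 5.62% lower. Groups did not overlap for 2 of the 6, both lower, and for 30.3% of all tested genes, 17.5% higher and 12.8% lower. None of the 6 was called in GsMTx4 against Control, where limma called 0.237% of all tested genes, 0.188% higher and 0.0487% lower. Hpgd and Ptger4, 2 of the 6, were lower there without overlap. Of all tested genes 19.6% did not overlap in that comparison, 5% higher and 14.6% lower. The median log2 difference of the 6 was 0.09 in DSS against Control and -0.37 in GsMTx4 against DSS, where that of all tested genes was -0.169 and 0.0671. The 3 comparisons share libraries, so their values are not independent of one another.

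**Figure D1:**
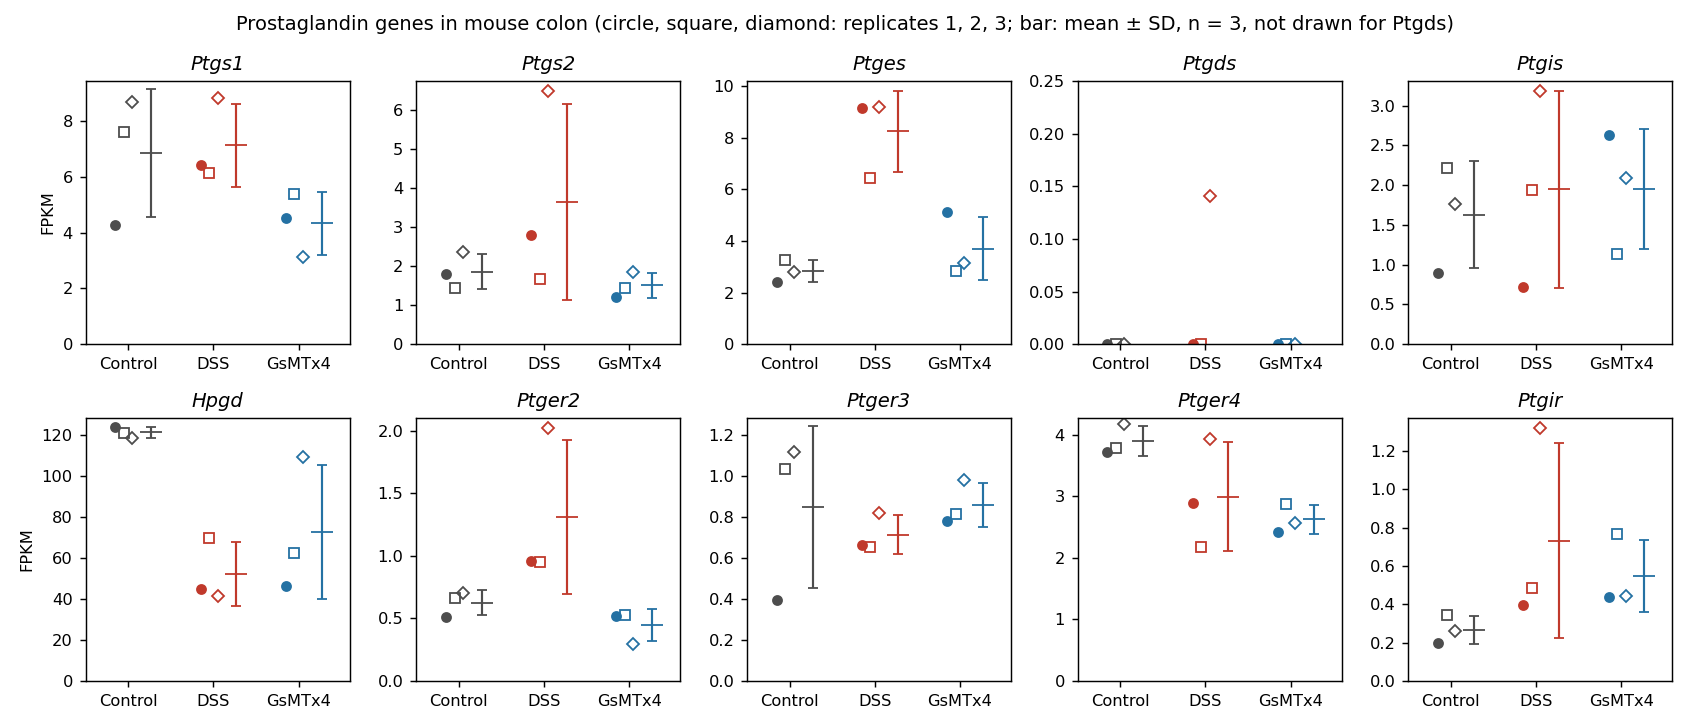
FPKM of the 10 genes in each library of the Control, DSS and GsMTx4 groups, with the mean ± SD (n = 3) beside the points; each panel has its own linear axis from 0. All 3 DSS libraries lie above the other 6 for Ptges, and all 3 Control libraries lie above the other 6 for Hpgd.

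In Control, the order of length-scaled levels was Hpgd, Ptgs1, Ptger4, Ptges, Ptgs2, Ptgis, Ptger3, Ptger2 and Ptgir. Neighbours from Hpgd down to Ptgs2 did not overlap in FPKM, those from Ptgs2 down to Ptger2 did, and Ptger2 lay above Ptgir in every Control library.

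Ptges (GRCm38 chromosome 2, 30889471 to 30929863, minus strand) encodes microsomal PGE synthase-1, the inducible enzyme that makes PGE2 from PGH2. It stood at 2.41, 3.25 and 2.81 FPKM in Control, at 9.13, 6.43 and 9.17 FPKM in DSS, and at 5.12, 2.83 and 3.16 FPKM in GsMTx4. Each DSS library was above every library of the other groups. The mean rose from 2.82 ± 0.423 to 8.24 ± 1.57 FPKM in DSS, a log2 fold change of 1.26 ± 0.21 (adjusted p = 0.00547 by limma). With GsMTx4 it was 3.70 ± 1.24 FPKM, a log2 fold change against DSS of -0.99 ± 0.21 (adjusted p = 0.0184). GsMTx4 libraries 2 and 3 lay within the Control range and GsMTx4 1 lay above it. Against Control the GsMTx4 group missed the threshold (0.27, 95% interval -0.19 to 0.74, adjusted p = 0.695). The rise in DSS held without any 1 library. The fall with GsMTx4 was lost without DSS 1 (adjusted p = 0.0533), DSS 3 (0.0582) or GsMTx4 2 (0.0692), and when only the 2 groups compared were fitted (0.0594).

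Hpgd (GRCm38 chromosome 8, 56294585 to 56321043, plus strand) had the highest FPKM of the set in every library, above 97.3% of the tested genes in Control. It stood at 123.9, 121.0 and 118.5 FPKM in Control, at 44.8, 69.9 and 41.2 FPKM in DSS, and at 46.5, 62.4 and 109.2 FPKM in GsMTx4. Control libraries were tightly grouped, DSS libraries were all lower, GsMTx4 1 and GsMTx4 2 lay within the DSS range, and GsMTx4 3 lay between the DSS and Control ranges. The mean fell from 121 ± 2.71 to 52.0 ± 15.6 FPKM in DSS, a log2 fold change of -1.24 ± 0.30 (adjusted p = 0.0242). Leaving out Control 1 (adjusted p = 0.0707), Control 2 (0.0767), Control 3 (0.0701), DSS 1 (0.063) or DSS 3 (0.0703) ended this call. It was also lost without a filter on low values (0.0645) and after median-of-ratios scaling (0.0693), with log2 differences of -1.47 to -1.05 over all alternatives run. In GsMTx4 the mean was 72.7 ± 32.6 FPKM. It overlapped DSS (0.43, 95% interval -0.26 to 1.11, adjusted p = 0.378). That log2 difference was 0.09 without GsMTx4 3, 0.28 without DSS 3, 0.65 without DSS 2 and 0.70 without GsMTx4 1, and passed in none of these fits (adjusted p = 0.822, 0.634, 0.215 and 0.139). It was below Control in every library, yet did not pass (-0.82 ± 0.30, adjusted p = 0.408).

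**Figure D2:**
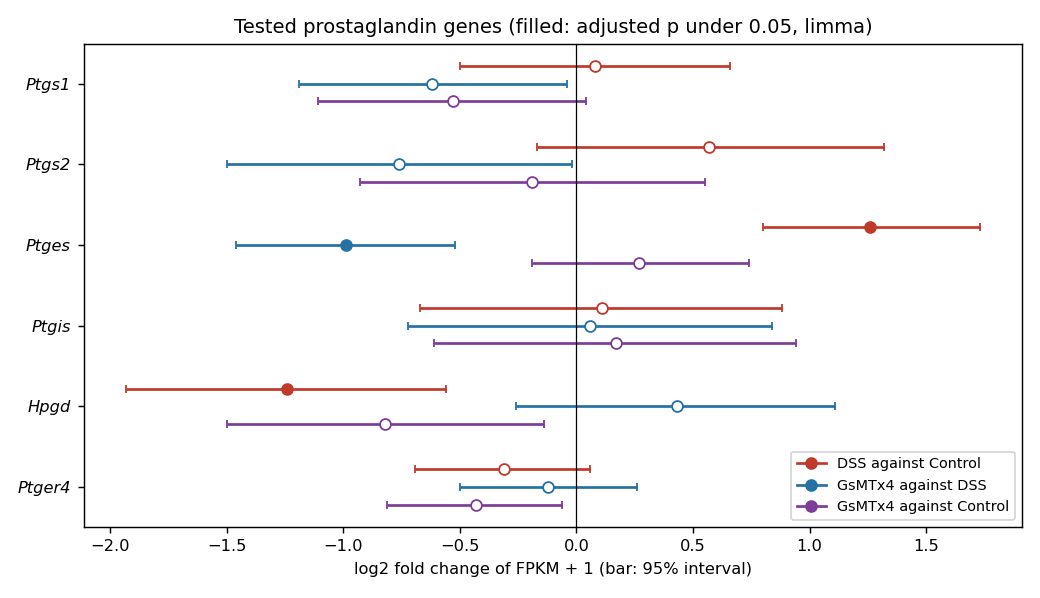
Log2 fold change of FPKM + 1 (x axis) with its 95% interval for the 6 tested genes (y axis) in the 3 comparisons; filled points have an adjusted p under 0.05. Ptges in DSS against Control, Ptges in GsMTx4 against DSS and Hpgd in DSS against Control are filled, at 1.26, -0.99 and -1.24.

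Promoter letters are shown for the genes whose levels moved, Ptges and Hpgd, and for Ptgs2, which encodes the inducible cyclooxygenase that supplies Ptges. Of the 10 genes, 9 had an entry in the RefSeq promoter table of GRCm38.p6, and Ptgis did not. Each line holds the 250 bases before the start site annotated by RefSeq, read along the gene's strand. For Ptges this site lies inside the gene range given above, and for Hpgd shortly before it. Positions below are counted from the RefSeq site only. Capitals mark the Egr core GTGGGCG (or CGCCCAC) and the GC box GGGCGG (or CCGCCC).
Ptges, chr2:30903298-30903547, minus strand: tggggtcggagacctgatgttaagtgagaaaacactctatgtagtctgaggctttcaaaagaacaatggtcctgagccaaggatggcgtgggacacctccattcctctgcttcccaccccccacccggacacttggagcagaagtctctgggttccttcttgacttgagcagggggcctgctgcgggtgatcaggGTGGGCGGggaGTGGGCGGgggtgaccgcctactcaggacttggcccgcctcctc
Hpgd, chr8:56294302-56294551, plus strand: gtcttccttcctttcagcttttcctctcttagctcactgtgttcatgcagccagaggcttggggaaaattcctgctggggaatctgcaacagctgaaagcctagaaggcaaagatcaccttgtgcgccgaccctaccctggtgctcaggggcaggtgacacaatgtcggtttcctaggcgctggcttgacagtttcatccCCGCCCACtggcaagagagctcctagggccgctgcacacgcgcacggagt
Ptgs2, chr1:150099781-150100030, plus strand: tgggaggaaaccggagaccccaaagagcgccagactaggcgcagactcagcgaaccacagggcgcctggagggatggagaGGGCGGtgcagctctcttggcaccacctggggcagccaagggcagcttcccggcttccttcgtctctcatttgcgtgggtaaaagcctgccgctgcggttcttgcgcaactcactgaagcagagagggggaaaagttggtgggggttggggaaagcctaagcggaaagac
Ptges held 2 copies of the Egr core, at bases -55 to -49 and -44 to -38 from the start site, each overlapping a GC box. Hpgd held 1 on the opposite strand at -49 to -43, also overlapping a GC box, and no other of the 9 promoters held the Egr core. The Egr core was found in 7.02% of 32851 RefSeq promoter windows of the same length, and the GC box in 32.7% of them and in 6 of the 9. Neither the cyclic AMP response half-site TGACG (or CGTCA; 17.8% of windows) nor the E-box CACGTG (6.02%) was among the letters of the 9 windows. Letters beyond either end of a window were not searched, so a site there would be missed. The matches describe letters only, and binding was not measured.

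The cyclooxygenases did not pass in any comparison. Ptgs1, the constitutive enzyme, stood at 4.29, 7.60 and 8.67 FPKM in Control, at 6.42, 6.14 and 8.84 FPKM in DSS, and at 4.51, 5.38 and 3.13 FPKM in GsMTx4. Control and DSS libraries overlapped (0.08, 95% interval -0.50 to 0.66, adjusted p = 0.835). Every GsMTx4 library was below every DSS library, but the difference missed the threshold (-0.62 ± 0.26, unadjusted p = 0.0389, adjusted p = 0.143).

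Ptgs2 (GRCm38 chromosome 1, 150100031 to 150108227, plus strand) stood at 1.79, 1.44 and 2.35 FPKM in Control, at 2.79, 1.66 and 6.47 FPKM in DSS, and at 1.22, 1.44 and 1.85 FPKM in GsMTx4. Only DSS 3 was far above the Control range, and DSS 2 lay inside it. The log2 difference in DSS was 0.57 ± 0.33 (adjusted p = 0.239), and 0.16 without DSS 3 (adjusted p = 0.615) or 0.91 without DSS 2 (0.0799). With GsMTx4 it was -0.76 ± 0.33 against DSS (adjusted p = 0.156), -0.35 without DSS 3 (0.34) and -1.10 without DSS 2 (0.0527). DSS 3 had 329.9 FPKM summed over 10 neutrophil markers where DSS 1 and DSS 2 had 88.2 and 132.5. It had 487.9 FPKM over 10 fibroblast markers where the other DSS libraries had 281.5 and 345.5, and 26.6 FPKM over 11 enteric neuron and glia markers where they had 3.71 and 6.56. The part of those cells in the Ptgs2 level was not tested.

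By FPKM, Ptgs2 made up 22.2% ± 6.75 of the sum of both cyclooxygenases in Control, 31.3% ± 10.5 in DSS and 26.5% ± 9.27 in GsMTx4, with overlapping libraries. Ptgs1 was the larger of the pair in all 9 libraries. The ratio of Hpgd to Ptges was 37.2 to 51.5 in Control, 4.49 to 10.9 in DSS and 9.07 to 34.6 in GsMTx4. It was thus lower in each DSS library than in any Control library, and the lowest GsMTx4 ratio, in GsMTx4 1, lay within the DSS range. Both ratios combine genes of the set and are given without a test.

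**Figure D3:**
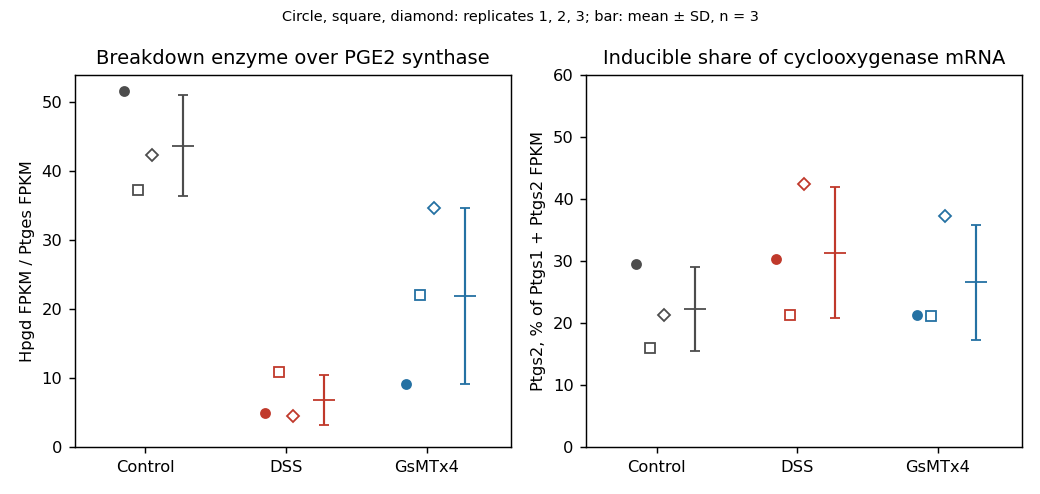
Left, Hpgd FPKM divided by Ptges FPKM; right, Ptgs2 as a percentage of the summed FPKM of Ptgs1 and Ptgs2; points are libraries and bars are mean ± SD (n = 3). The left panel shows Control libraries at 37.2 to 51.5 above all others, and in the right panel the 3 groups overlap.

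The other terminal synthases were low or variable. Ptgis encodes prostacyclin synthase, and stood at 0.897, 2.22 and 1.76 FPKM in Control, at 0.718, 1.93 and 3.18 FPKM in DSS, and at 2.63, 1.13 and 2.09 FPKM in GsMTx4. Its groups overlapped fully, with log2 differences of 0.11 (95% interval -0.67 to 0.88) in DSS against Control and 0.06 (-0.72 to 0.84) in GsMTx4 against DSS. Ptgds, the lipocalin-type PGD2 synthase, was listed at 0 in 8 libraries and at 0.141 FPKM in DSS 3, equal to about 3 fragments over its longest transcript.

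Of the receptors, only Ptger4 passed the filter on low values. Ptger4 (GRCm38 chromosome 15, 5206661 to 5244187, minus strand) encodes EP4, a PGE2 receptor that raises cyclic AMP, and stood at 3.73, 3.79 and 4.18 FPKM in Control, at 2.89, 2.17 and 3.93 FPKM in DSS, and at 2.42, 2.88 and 2.57 FPKM in GsMTx4. DSS 3 lay within the Control range and the other DSS libraries below it (-0.31 ± 0.17, adjusted p = 0.209). All GsMTx4 libraries were below all Control libraries (-0.43 ± 0.17, unadjusted p = 0.0284, adjusted p = 0.427). Ptger4 shares exonic sequence with Ttc33 on the opposite strand, at 4.61 to 9.76 FPKM, and whether reads were counted by strand is not given in the sources used here.

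Ptger2 encodes EP2, which also raises cyclic AMP, and was too low to test. It stood at 0.511, 0.663 and 0.704 FPKM in Control, at 0.960, 0.947 and 2.02 FPKM in DSS, and at 0.520, 0.527 and 0.298 FPKM in GsMTx4. Each DSS library was above each library of the other groups. Without a filter on low values the log2 difference was 0.48 ± 0.19 in DSS against Control (adjusted p = 0.207) and -0.65 ± 0.19 in GsMTx4 against DSS (adjusted p = 0.122). These levels equal about 17 to 128 fragments a library over the longest transcript.

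Ptgir, the prostacyclin receptor, was also below the filter, at 0.198, 0.343 and 0.262 FPKM in Control, at 0.395, 0.485 and 1.32 FPKM in DSS, and at 0.435, 0.766 and 0.445 FPKM in GsMTx4. Both DSS and GsMTx4 libraries were all above Control, and without the filter neither difference passed (0.41 ± 0.19, adjusted p = 0.282, and 0.28 ± 0.19, adjusted p = 0.788). Ptger3 encodes EP3, a PGE2 receptor that lowers cyclic AMP, and stood at 0.394 to 1.12 FPKM in Control, 0.655 to 0.822 in DSS and 0.781 to 0.981 in GsMTx4, with all 3 groups overlapping. Ptger4 was the largest part of the summed FPKM of the 4 receptors in every library, at 65.0 to 77.2% in Control, 48.6 to 58.9% in DSS and 57.8 to 59.9% in GsMTx4.

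Around these genes, arachidonate release showed 2 rises in DSS and no fall among 15 tested of 17 listed genes. Over all tested genes, 6.41% were called higher and 10.7% lower in DSS against Control. In GsMTx4 against DSS these shares were 6.66% and 5.62%. They stand beside the counts of each list below, and no list was tested as a set. Pla2g2d, a secreted phospholipase A2 of lymphoid tissue, rose from 0.749 to 4.65 FPKM (1.67 ± 0.27, adjusted p = 0.00512) and was lower with GsMTx4, at 1.12 FPKM (-1.37 ± 0.27, adjusted p = 0.0148, and 0.0581 without GsMTx4 2). Pla2g4f, a cytosolic phospholipase A2, rose from 10.1 to 29.7 FPKM (1.46 ± 0.32, adjusted p = 0.0172, and 0.0702 without Control 2 or 0.0508 without the filter on low values). It did not pass with GsMTx4 (-0.64 ± 0.32, adjusted p = 0.219). Abhd6, a lipase of monoacylglycerols, fell from 15.7 to 7.52 FPKM with GsMTx4 (-0.93 ± 0.23, adjusted p = 0.033), a call lost without Control 3, DSS 1, DSS 2 or any 1 GsMTx4 library (adjusted p = 0.0536 to 0.11), without the filter (0.0789) and with only 2 groups fitted (0.0629). The list's median log2 difference was -0.05 in DSS against Control and 0.09 in GsMTx4 against DSS.

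Of 7 other prostanoid synthase genes, 2 fell in DSS and both were higher with GsMTx4 than in DSS. Ptges2, a second membrane-associated PGE synthase, went from 5.12 ± 0.488 to 2.81 ± 0.0776 FPKM in DSS (-0.68 ± 0.13, adjusted p = 0.00992, and 0.054 without Control 2) and stood at 5.32 ± 0.733 FPKM in GsMTx4 (0.72 ± 0.13, adjusted p = 0.0109). Its direction in DSS was thus opposite to that of Ptges. Akr1b3, an aldose reductase with PGF synthase activity, went from 10.1 to 5.87 and 10.7 FPKM (-0.69 ± 0.14, adjusted p = 0.0115, and 0.0595 without Control 2; then 0.77 ± 0.14, adjusted p = 0.0109). Neither rise with GsMTx4 passed when only those 2 groups were fitted (adjusted p = 0.051 and 0.0507). The other 5 genes of the list did not pass in either comparison.

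Of 8 listed genes of prostanoid transport and later breakdown, 2 fell in DSS, and both were higher with GsMTx4 than in DSS. Ptgr1, which reduces the 15-keto products of Hpgd, stood at 14.5, 10.6 and 9.93 FPKM in Control, at 5.21, 5.64 and 4.55 FPKM in DSS, and at 10.3, 12.9 and 11.98 FPKM in GsMTx4. DSS libraries were all below the other groups, which overlapped each other. The log2 differences were -1.03 ± 0.16 in DSS (adjusted p = 0.00461) and 1.05 ± 0.16 with GsMTx4 (adjusted p = 0.00621), and both calls held without any 1 library. Zadh2, another 15-keto-prostaglandin reductase, went from 25.0 to 16.7 and 24.0 FPKM (-0.56 ± 0.10, adjusted p = 0.0088, and 0.0502 without Control 2; then 0.50 ± 0.10, adjusted p = 0.0178, and 0.0606 without GsMTx4 2). Median-of-ratios scaling ended the call of Zadh2 in DSS (adjusted p = 0.0575), and TPM rescaling (0.0617) and a fit of 2 groups (0.0905) that with GsMTx4. The prostaglandin uptake transporter gene Slco2a1, chosen after its values were seen, was at 4.55 FPKM in Control, 7.44 in DSS and 7.49 in GsMTx4, and no difference passed (0.60, 95% interval 0.05 to 1.14, adjusted p = 0.114 in DSS against Control). Of 6 other prostanoid receptor genes, 2 were tested and neither passed. The EP1 receptor gene Ptger1 was at 3.26 FPKM in Control, 3.76 in DSS and 2.73 in GsMTx4, and Ptgfrn, a regulator of the PGF receptor, at 14.1, 19.2 and 14.3 FPKM (adjusted p = 0.213 in DSS against Control and in GsMTx4 against DSS).

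**Figure D4:**
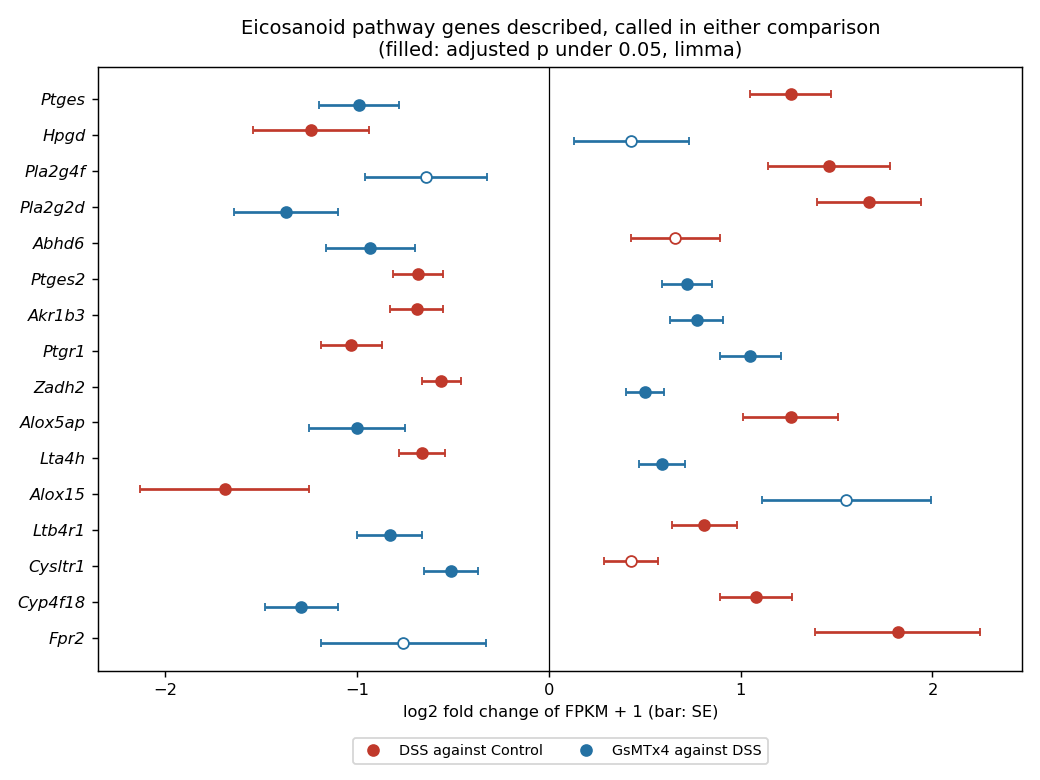
Log2 fold change of FPKM + 1 (x axis) with its SE in DSS against Control and in GsMTx4 against DSS, for the genes of the set and of the arachidonate, prostanoid and leukotriene lists that are described here and were called in either comparison (y axis); filled points have an adjusted p under 0.05. Points of a gene lie on opposite sides of 0, and the DSS libraries enter both comparisons with opposite sign.

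The leukotriene and lipoxygenase branch, which draws on the same arachidonic acid, had 4 rises and 2 falls in DSS among 9 tested of 14 listed genes, and 1 rise and 4 falls with GsMTx4. Of all tested genes, 17.1% were called in DSS against Control and 12.3% in GsMTx4 against DSS. Alox5ap, which presents arachidonate to 5-lipoxygenase, went from 5.25 to 14.2 and 6.60 FPKM (1.26 ± 0.25, adjusted p = 0.0117; then 95% interval -1.57 to -0.43, adjusted p = 0.0348). The second call was lost without DSS 2, DSS 3, GsMTx4 2 or any 1 Control library (adjusted p = 0.0543 to 0.109), without the filter (0.0855) and with only 2 groups fitted (0.0902). The leukotriene B4 receptor gene Ltb4r1 went from 0.543 to 1.72 FPKM in DSS (0.81 ± 0.17, adjusted p = 0.0134, and 0.0582 without Control 3). With GsMTx4 it was at 0.510 FPKM (-0.83 ± 0.17, adjusted p = 0.0159, and 0.0575 without GsMTx4 2 or 0.0571 with 2 groups fitted). Ltb4r1 reached 1 FPKM only in the DSS libraries, so it entered the test through that group. Without any 1 DSS library it was not tested. Cyp4f18, a myeloid enzyme that inactivates leukotriene B4, went from 4.66 to 11.3 and 3.90 FPKM (1.08 ± 0.19, adjusted p = 0.00762; then -1.29 ± 0.19, adjusted p = 0.00551), and both calls held without any 1 library.

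Lta4h, which makes leukotriene B4, moved the other way, from 16.4 to 10.0 and 15.6 FPKM (-0.66 ± 0.12, adjusted p = 0.00857; then 0.59 ± 0.12, adjusted p = 0.0174, and 0.0536 without DSS 3, 0.0661 without GsMTx4 2 and 0.0775 with 2 groups fitted). Alox15, a lipoxygenase of lipid mediators, went from 3.29 to 0.216 FPKM in DSS (-1.69 ± 0.44, adjusted p = 0.0314), lost without any 1 DSS library, Control 1 or Control 3 (0.0539 to 0.0872), or without the filter (0.0887). The formyl peptide and lipoxin receptor gene Fpr2 rose in DSS from 1.11 to 7.01 FPKM (1.82 ± 0.43, adjusted p = 0.0227), lost without DSS 2 or any 1 Control library (0.0513 to 0.0809), or without the filter (0.0667). The cysteinyl leukotriene receptor gene Cysltr1 was lower with GsMTx4 than in DSS, at 0.868 against 1.68 FPKM (-0.51 ± 0.14, adjusted p = 0.0436), a call that held only without DSS 2 among the 9 libraries left out in turn (0.0646 to 0.113 in the other 8). It was also lost with a pseudocount of 0.1 (0.051), TPM rescaling (0.0763), no filter (0.0979) or 2 groups fitted (0.129). The list's median log2 difference was 0.43 in DSS against Control, beside -0.169 for all tested genes, and -0.51 in GsMTx4 against DSS, beside 0.0671.

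Markers of the cells that could carry these transcripts moved with the groups as well. Beside the marker counts below, 6.41% of all tested genes were called higher and 10.7% lower in DSS against Control. In whole tissue, fewer cells of a type and less RNA per cell cannot be told apart. Macrophage and monocyte markers, led by Lyz2 and C1qa, summed to 474.6 to 573.4 FPKM in Control, 871.1 to 1104 in DSS and 541.0 to 676.2 in GsMTx4, and 4 of 10 rose in DSS. Neutrophil markers, led by S100a9 and S100a8, summed to 3.82 to 5.20, 88.2 to 329.9 and 10.4 to 54.6 FPKM, with 5 of 6 tested risen in DSS. Fibroblast markers, led by Dpt and C3, summed to 206.9 to 220.0, 281.5 to 487.9 and 193.6 to 265.8 FPKM, with 2 of 9 risen. Endothelial markers, led by Pecam1 and Eng, summed to 18.9 to 26.1, 32.8 to 59.3 and 19.1 to 30.6 FPKM, with 6 of 10 risen. Of the 10, Emcn reached 1 FPKM only in DSS libraries, so it was tested only through that group. B cell markers, led by Cd79a and Cd79b, summed to 11.3 to 41, 44 to 197 and 21.8 to 39.9 FPKM. Adipocyte markers, led by Fabp4 and Cfd, summed to 3.95 to 13.4, 17 to 47.4 and 5.79 to 10.5 FPKM. All these sums are highest in DSS, as Ptges is, but a sum weighs its most abundant markers most. In DSS 1, C3 alone gave 96.9 of the 281.5 FPKM of the fibroblast sum. Lum, at 6.07 FPKM, was below each Control library there, Cfd stood at 0.104 FPKM and Adipoq was listed at 0. All 9 tested fibroblast and all 5 tested adipocyte markers had positive log2 differences in DSS against Control. The part of these cells in the Ptges result was not tested.

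Among epithelial lists, absorptive colonocyte markers, led by Krt20 and Car4, summed to 1839 to 2514 FPKM in Control, 2491 to 3289 in DSS and 1603 to 1888 in GsMTx4, with 2 risen and 2 fallen of 11 in DSS. Goblet cell markers, led by Zg16 and Tff3, summed to 4726 to 6504, 3436 to 7124 and 3285 to 4770 FPKM, with 2 of 10 fallen. The called genes of these 2 lists are named after their values were seen: the water channel gene Aqp8 (364 to 103 FPKM), the phosphate transporter gene Slc20a1 (49.8 to 20.2), the secretory lineage factor gene Atoh1 (33.0 to 10.96) and Reg4 (214 to 13.4) fell in DSS, and the carbonic anhydrase gene Car1 (152 to 470) and Ceacam20 (47.4 to 94.8) rose. The part of epithelial cells in the Hpgd result was not tested. Mast cell markers, led by Mcpt1 and Mcpt2, summed to 26.9 to 84.7, 14.9 to 31.0 and 10.96 to 35.6 FPKM, none of 4 tested passed, and Tpsab1 was below 0.1 FPKM throughout. Tuft cell markers, led by Sh2d6 and Dclk1, summed to 2.31 to 5.64, 2.34 to 7.59 and 1.53 to 2.79 FPKM, and Il25 was below 0.1 FPKM throughout. Mesothelial markers, led by Krt19, which epithelium also expresses, and Gpm6a, summed to 996.1 to 1332, 863.4 to 1480 and 997.9 to 1382 FPKM, and neither of 2 tested of 9 listed passed. Below the filter, Msln, also named after its values were seen, was at 0.0156 to 0.392 FPKM in Control, 0.857 to 1.61 in DSS and 0.0932 to 0.184 in GsMTx4, and Lrrn4 and Bnc1 were below 0.1 FPKM in all 9 libraries. In DSS against Control, smooth muscle markers, led by Acta2 and Tagln, and T cell markers, led by Trac and Lck, passed in 0 of 10 and 0 of 9 cases. In that comparison 3 of 8 tested B cell markers, 2 of 5 adipocyte markers and 1 of 3 enteric neuron and glia markers rose. Lpl of the adipocyte list and Ret of the neuron and glia list reached 1 FPKM only in DSS libraries. They were tested only through the group where they were high, which tilts these counts toward rises.

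The genes most like each member were taken by Pearson r of log2(FPKM + 1) over the 9 libraries. This r is a description over points that share 3 groups and their depth. For Ptges they were Sncaip (r = 0.991), Prkch (0.976) and Plet1 (0.975). Plet1, a gene of wound epithelium, stood at 0.706 to 1.43 FPKM in Control, 54.0 to 126 FPKM in DSS and 1.92 to 13.1 FPKM in GsMTx4. For Hpgd they were Ndufa7 (0.986) and Ndufc2 (0.974), which encode subunits of respiratory complex I, and the interferon-response gene Oas1a (0.972). Like Hpgd, Ndufa7 was higher in GsMTx4 3, at 41.7 FPKM, than in GsMTx4 1 and GsMTx4 2, at 28.9 and 34.9 FPKM. GsMTx4 3 also had the highest FPKM sum of the 9 libraries, and the part of that in this likeness was not tested.

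For Ptgs2 the nearest were Nab2 (0.965), a corepressor of Egr factors, Chrnb1 (0.961) and Fhl3 (0.953), each highest in DSS 3. For Ptgs1 they were Gulp1 (0.961), Otulinl (0.931) and Brsk1 (0.93). For Ptgis they were Jph2 (0.956), the smooth muscle gene Lmod1 (0.943) and Tpd52-ps (0.941), and for Ptger4 Myef2 (0.987), Med26 (0.967) and Pdcd7 (0.953). Within the set, r was -0.83 between Ptges and Hpgd, 0.61 between Ptges and Ptgs2, and 0.58 between Ptgs1 and Ptger4.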

How the data were processed

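Colon RNA was sequenced from 9 libraries, 3 each of Control, DSS and GsMTx4, grouped by sample title. The authors deposited FPKM values for 35315 genes, and the submitters' processing notes name cutadapt, FastQC and the GRCm38 build. Aligner, quantifier and strand setting: not given in the sources used here. GENCODE M21 gave 35196 genes a symbol. Values were transformed to log2(FPKM + 1). Genes at 1 FPKM or more in at least 3 libraries were tested (14360). limma 3.58.1 in R 4.3.3 fitted 1 mean per group over all 9 libraries with an expression trend in the empirical Bayes step. Tests were two-sided, and Benjamini-Hochberg adjusted p under 0.05 was a call. The fit was tested on simulated data with 200 changed genes of mean log2 level above 2 in Control. It recovered 67% of log2 changes of 1 in DSS against Control, 50% in GsMTx4 against DSS and 57% in GsMTx4 against Control. For log2 changes of 2 it recovered 94%, 93% and 84%. Ptges, Ptgs2 and Ptgis lie below that Control level, so these shares do not describe them. A change that did not pass may thus have been missed.

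The genes of the set and the lists were chosen with earlier results of these data known. Named by rule were all 10 genes, list genes called in any comparison, the 2 of smallest p per pathway list, the 2 highest markers per cell type list, and the 3 genes most like each tested gene by Pearson r. Depth was estimated from the spacing of the lowest values of 11180 single-transcript genes over 500 bases. FPKM are not whole counts, so no count test was run. Alternatives were another pseudocount, 2 other filters, 3 scalings, 4 other fits and each library left out in turn. Figures used matplotlib 3.10.9. The result for 1 gene of the list of prostanoid transport and other breakdown is not reported here.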

Additional observations from a re-analysis of the deposited data

How the results depend on the processing

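No called gene of the set or of the pathway lists turned direction under any alternative. Over 84 gene-by-comparison results under 10 other settings and 9 fits with a library left out, 99 of 1539 values lost a call and 17 gained one. Results without a call, among them all those of GsMTx4 against Control, could lose none. The 1539 values thus include many that could not lose a call. Scaling moved the balance of all calls: 37.4% were higher in DSS against Control as deposited, 27.5% after TPM rescaling, 60.7% after median-of-ratios scaling and 50.1% after quantile normalization, which moved the median of all genes by -0.106, 0.158 and 0.111. Depth limits the low receptors and Ptgds.

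In DSS against Control the set had 1 rise, and 0 at a mean FPKM filter of 5, which Ptges did not reach, and 1 rise without any 1 library. Its 1 fall became 0 without a filter or after median-of-ratios scaling, and 0 to 1 with a library left out. Over all genes, 921 rises and 1541 falls became 579 and 992 at the mean filter and 1418 and 919 after median-of-ratios scaling. With a library left out they ran from 383 to 1093 and from 576 to 1989. In GsMTx4 against DSS the 1 fall of the set became 0 at the mean filter or with only the 2 groups compared, and 0 to 1 with a library left out. The 956 rises and 807 falls of all genes became 590 and 483 without a filter and 327 and 260 with only the 2 groups. Falls became 495 at the mean filter. Leaving out a library gave 352 to 1186 rises and 306 to 767 falls. In GsMTx4 against Control the set had 0 calls throughout. All genes gave 27 rises and 7 falls as reported. They gave 3 and 2 at the mean filter, 2 falls with a pseudocount of 0.1, 12 falls without a filter, and 3 falls after quantile normalization or scaling by median of ratios. With a library left out there were 4 to 47 rises and 1 to 11 falls. The mean share of Ptgs2 ran from 18.6 to 25.4% in Control, 25.8 to 36.3% in DSS and 21.2 to 29.2% in GsMTx4.

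The deviations of same-numbered libraries from their group means correlated at -0.23 to 0.1. With 3 libraries a group, these values cannot show whether same-numbered libraries were handled together. With the replicate number as a block, the calls of Ptges (adjusted p = 0.0153 and 0.0391) and Hpgd (0.0432) held, and 6 calls of list genes were lost: Alox15 and Pde4b in DSS against Control (0.0575 and 0.0685), and Zadh2, Alox5ap, Abhd6 and Cysltr1 in GsMTx4 against DSS (0.0562 to 0.0901). The replicate block gave 995 falls in DSS against Control and 553 rises and 525 falls in GsMTx4 against DSS over all genes.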

Other observations

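Cyclic AMP and CREB target genes, which PGE2 receptors and many other signals can drive, were listed beside the set. Of 9 tested of 12 listed genes, 3 rose and 1 fell in DSS, and 1 rose and 3 fell with GsMTx4. Of all tested genes, 17.1% were called in DSS against Control and 12.3% in GsMTx4 against DSS. Areg, a growth factor of epithelial repair, went from 14.4 FPKM in Control to 39.9 in DSS and 12.4 in GsMTx4 (1.37 ± 0.22, adjusted p = 0.00486 by limma; then -1.58 ± 0.22, adjusted p = 0.00418), and both calls held without any 1 library. The kinase gene Sik1 went from 2.23 to 6.30 and 2.18 FPKM (1.13 ± 0.24, adjusted p = 0.0141, and 0.055 without Control 3; then -1.17 ± 0.24, adjusted p = 0.0167, and 0.0648 without GsMTx4 2 or 0.0586 with 2 groups fitted). Ppargc1a, a regulator of mitochondrial genes, moved the other way, from 9.03 to 2.42 and 7.29 FPKM (-1.55 ± 0.21, adjusted p = 0.00243; then 1.28 ± 0.21, adjusted p = 0.00729). The phosphodiesterase gene Pde4b rose in DSS from 0.607 to 1.85 FPKM (0.81 ± 0.22, adjusted p = 0.0368), lost without any 1 Control library (0.0577 to 0.129), after TPM rescaling (0.06) and without a filter (0.0911). Pde4b reached 1 FPKM only in the DSS libraries, so it entered the test through that group. Without any 1 DSS library it was not tested. Dusp1, a phosphatase gene, was lower with GsMTx4 than in DSS, at 5.13 against 15.4 FPKM (-1.44 ± 0.38, adjusted p = 0.04). That call held only without GsMTx4 3 among the 9 libraries left out in turn (0.0527 to 0.109 in the other 8), and was lost without a filter (0.104) or with 2 groups fitted (0.0974). Which signal moved these genes was not tested.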
